A study of Mus musculus with 8 samples.

Results

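The miR-132 and miR-212 cluster is a pair of neighbouring microRNA (miRNA) hairpins whose mature products are mmu-miR-132-5p, mmu-miR-132-3p, mmu-miR-212-5p and mmu-miR-212-3p, written here without the mouse prefix mmu. These 4 mature miRNAs were taken by name, 4 of the 1907 mature miRNAs in each count table. The rule uses no measured value, although the cluster was picked for study with earlier results of these data known. They were measured by small RNA sequencing in wild-type mouse bone marrow-derived macrophages, primary cells grown for 6 days from the marrow of mice aged 8 to 12 weeks in medium with L929 supernatant, a source of the growth factor MCSF. The control group was 3 libraries of unstimulated cells. The LPS group was 3 libraries of cells exposed for 3 h to LPS, a bacterial outer membrane component that triggers Toll-like receptor 4, at 100 ng/ml. The labels do not say whether the libraries of a group came from separate mice or cultures, and every p-value here reflects library-to-library spread alone, which may be technical. Library totals ran from 3280688 to 4312555 counts, of which the 4 arms held 346 to 490 per library, or 0.0109% of all counts.

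A miRNA hairpin is cut into a duplex with a 5p and a 3p arm, and the arm kept by an Argonaute protein guides it to messenger RNAs that pair with the seed, bases 2 to 8 of the miRNA. In neurons, miR-132 and miR-212 are made from a shared primary transcript that the transcription factor CREB switches on with synaptic activity and neurotrophins, and miR-132 restrains the GTPase-activating protein p250GAP. In immune cells miR-132 has been described as acting on the coactivator p300 and on acetylcholinesterase, which links it to the damping of inflammatory signalling. CREB activity was not measured in these libraries.

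The hairpins lie on the plus strand of chromosome 11 in RefSeq's GRCm38.p6 assembly, Mir212 at chr11:75173388-75173478 and Mir132 at chr11:75173682-75173747. They are separated by 203 bases and together span 360 bases. No other gene span of the RefSeq table overlaps them, so they are intergenic in that table. The nearest genes are Hic1, which ends 3132 bases before Mir212, and Ovca2, which starts 2195 bases after Mir132. The RefSeq hairpin sequences are shown 5′ to 3′ because they place the arms that were counted, and capitals mark the 5p arm and then the 3p arm.
Mir212: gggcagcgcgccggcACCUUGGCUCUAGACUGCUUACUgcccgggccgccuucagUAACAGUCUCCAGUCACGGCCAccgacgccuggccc
Mir132: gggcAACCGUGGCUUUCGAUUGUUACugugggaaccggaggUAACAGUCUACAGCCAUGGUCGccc

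The Mir212 hairpin has 91 bases and the Mir132 hairpin 66, with 17 and 15 bases between their arms. The mature arms from RefSeq, written 5′ to 3′ with the seed in capitals, show which products would be counted towards the same targets.
miR-132-3p: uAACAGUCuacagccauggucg
miR-212-3p: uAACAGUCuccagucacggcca
miR-132-5p: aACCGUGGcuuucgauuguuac
miR-212-5p: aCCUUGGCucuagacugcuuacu

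The 3p arms of the hairpins share the seed AACAGUC, whose complementary target site reads GACUGUU. They are identical over their first 9 bases and at 17 of 22 positions (77.3%). Counted from the 5′ end of miR-132-3p, the differences from it to miR-212-3p are A10C, C14U, U17C, U20C and G22A. In the RefSeq table of 1679 mature mouse miRNAs, no miRNA besides these 3p arms has that seed. The 5p arms have different seeds, ACCGUGG in miR-132-5p and CCUUGGC in miR-212-5p, and neither was found in another mature miRNA of the table. With miR-212-5p shifted by 1 base the 5p arms match at 14 of 21 positions (66.7%).

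The question put to the cluster was how abundant its 4 arms were and whether 3 h of LPS changed them. Levels are in CPM, each arm's share of its library's counts in parts per 1000000 after correction with TMM factors (trimmed mean of M-values), and are given as mean ± SD. The mature cluster arms have 22 or 23 bases, so no length correction was applied. Whether each counted read was a whole mature miRNA is not known. Whether different sequences were captured equally well was not measured, so ratios of levels between miRNAs are ratios of counts. A capture difference that repeats in every library would also repeat in the tests of level between arms and hairpins. None of the 4 arms passed the test for a change after LPS, where 5.04% of the 357 tested miRNAs did (18 miRNAs at an adjusted p below 0.05). All 4 passed the filter on low counts. Their fitted changes were all below 0, with a median log2 fold change of -0.19, beside 169 of 357 tested miRNAs below 0 and a median of 0.01.

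mmu-miR-132-3p, the arm studied most and the main product of its hairpin, was the most abundant of the 4. It stood at 64.6, 73.3 and 76.4 CPM in control replicates 1 to 3 and at 66.8, 70.6 and 66.5 CPM in LPS replicates 1 to 3. All 3 LPS libraries lay inside the control range. The group levels were 71.4 ± 6.13 and 68.0 ± 2.28 CPM (SD, n = 3 each), a log2 fold change of -0.07 (SE 0.14, 95% interval -0.38 to 0.23, edgeR adjusted p = 0.943). The interval runs from 0.770-fold to 1.18-fold of the control level, so it contains no rise above 1.18-fold. It ranked 151st of the 357 tested miRNAs by mean level, and the median tested miRNA was at 41.8 CPM. Ranks across miRNAs are uncertain, because how reads that map to several loci were counted is not given in the sources used here. Of the miRNAs held by more than 1 RefSeq hairpin, 33 of 51 (64.7%) had 0 counts in all 6 libraries, against 771 of 1572 (49.0%) of those held by 1. Among tested miRNAs the order was the opposite, with a median of 66.2 CPM for 13 held by more than 1 hairpin. The 301 held by 1 had a median of 40.7 CPM. miR-26a-5p, which is held by 2 hairpins, was at 46.1 CPM, and miR-26b-5p, held by 1, at 5851 CPM. These 2 were chosen after their values were seen. Each cluster arm is held by 1 hairpin, which does not by itself show that all its reads were counted.

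mmu-miR-132-5p, the passenger arm of the same hairpin, was the scarcest member. Its levels were 4.04, 8.25 and 8.73 CPM in controls and 8.55, 5.64 and 5.33 CPM after LPS, from 17 to 36 counts per library. The lowest and the highest of the 6 values were both control libraries. Means were 7.00 ± 2.58 and 6.50 ± 1.78 CPM, with a log2 fold change of -0.12 (SE 0.33, 95% interval -0.86 to 0.62, edgeR adjusted p = 0.964). The coefficient of variation was 36.9% in controls, where counting alone gives 18.6% at these counts. The sign of this change was not stable, since leaving out control replicate 2, control replicate 3 or LPS replicate 3 gave values of 0.02, 0.10 and 0.05.

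mmu-miR-212-3p, which carries the same seed as miR-132-3p, had the largest fitted change of the 4. Control libraries held 19.5, 15.5 and 16.7 CPM and LPS libraries 16.8, 11.0 and 11.2 CPM. LPS replicates 2 and 3 lay below every control library, and LPS replicate 1 lay above control replicates 2 and 3. The means were 17.2 ± 2.02 and 13.0 ± 3.28 CPM, a log2 fold change of -0.42 (SE 0.23, 95% interval -0.93 to 0.09) that did not pass. In edgeR's quasi-likelihood test its p was 0.0938 before and 0.620 after Benjamini-Hochberg adjustment. Of the 357 tested miRNAs, 51 had a larger absolute change (14.3%).

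mmu-miR-212-5p, the opposite arm, had 18.5, 19.7 and 17.0 CPM in the control libraries and 17.4, 16.7 and 12.2 CPM in the LPS libraries. LPS replicate 1 lay within the control range, LPS replicate 2 just under it, and LPS replicate 3 was the lowest of the 6 libraries. Means were 18.4 ± 1.35 and 15.4 ± 2.83 CPM, with a log2 fold change of -0.26 (SE 0.21, 95% interval -0.71 to 0.20, edgeR adjusted p = 0.860).

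**Figure D1:**
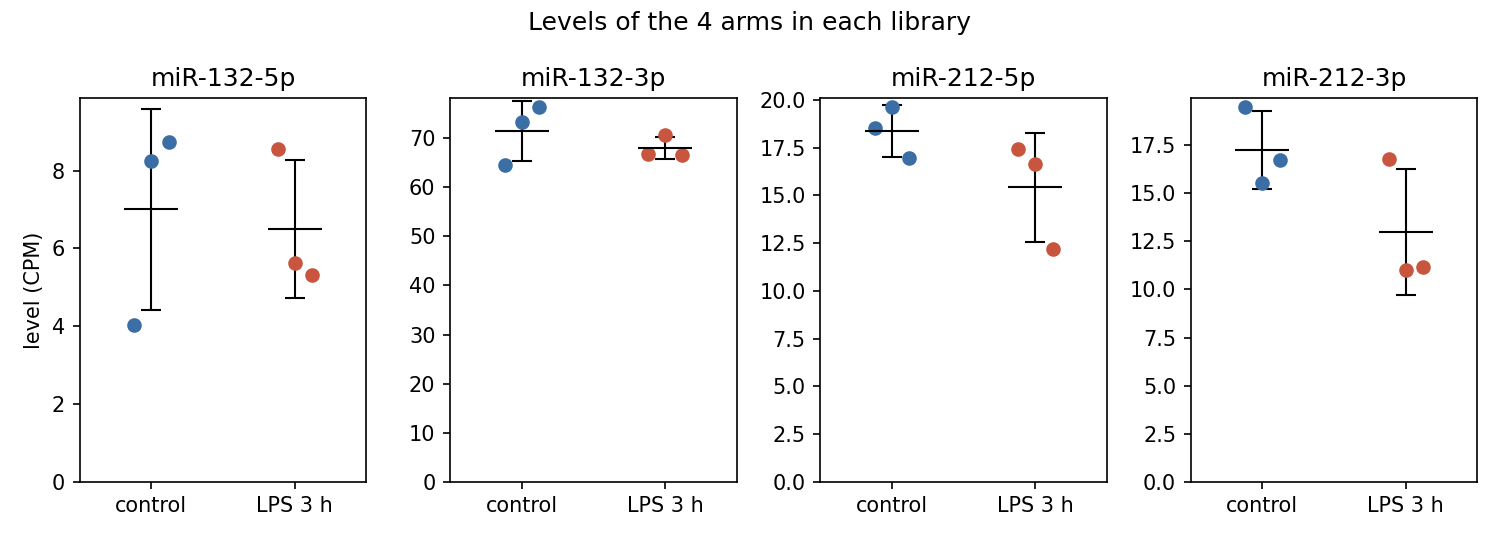
Level in CPM (vertical axes, each from 0) of the 4 arms in the 3 control and 3 LPS libraries. Points are libraries in replicate order, long bars are group means and whiskers are 1 SD. Control and LPS libraries overlap in each of the 4 panels, and LPS replicates 2 and 3 of miR-212-3p (11.0 and 11.2 CPM) lie below the controls.

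The spread between libraries was set beside counting error. In controls the coefficient of variation of miR-212-5p was 7.33% and that of miR-212-3p 11.7%, where counting alone gives 11.4% and 11.8%. In the LPS libraries these values were 18.4% and 25.3%, beside 13.2% and 14.5% from counting. For miR-132-3p the spread was 8.58% in controls and 3.36% after LPS, beside 5.81% and 6.28% from counting. The spread was therefore near or below counting error for miR-132-3p after LPS and for both miR-212 arms in controls. It was above counting error for miR-132-3p in controls and for both miR-212 arms after LPS. For miR-132-5p it was above counting error in controls and after LPS (27.3% beside 20.6% after LPS). Each coefficient rests on 3 libraries, and none was tested against counting error.

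**Figure D2:**
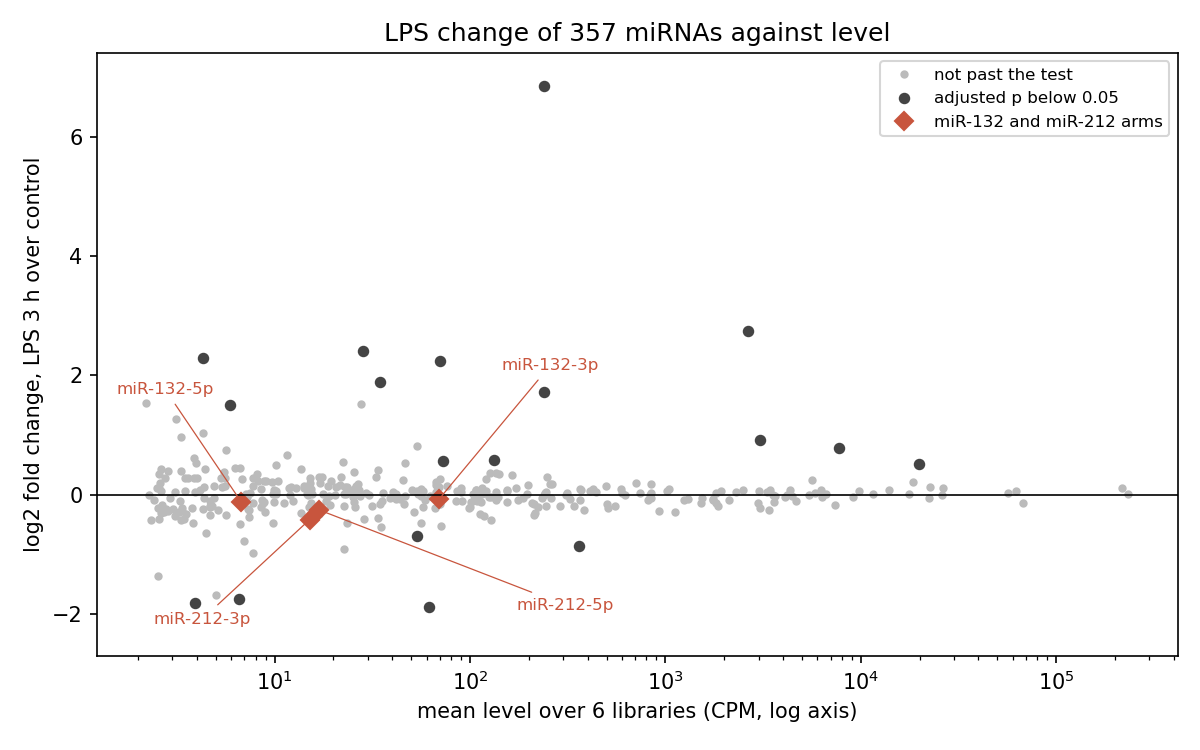
Log2 fold change of LPS over control (vertical axis) against mean level over 6 libraries (horizontal log axis, CPM) for the 357 tested miRNAs. Diamonds are the 4 cluster arms, which lie between -0.42 and -0.07, and dark points are the 18 miRNAs past the test.

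Counts of both arms were then summed to test the hairpins. The miR-132 hairpin had 68.6, 81.5 and 85.1 CPM in the control libraries and 75.3, 76.2 and 71.8 CPM in the LPS libraries, with every LPS library inside the control range. Its log2 fold change was -0.06 (SE 0.15, 95% interval -0.39 to 0.27, edgeR adjusted p = 0.962). The miR-212 hairpin had 38.0, 35.2 and 33.7 CPM in the control libraries and 34.2, 27.7 and 23.3 CPM in the LPS libraries. LPS replicate 1 exceeded control replicate 3, and the other LPS libraries lay below all controls. Its log2 fold change was -0.32 (SE 0.20, 95% interval -0.74 to 0.11, edgeR adjusted p = 0.815). Neither hairpin passed, where 2.68% of 261 hairpin names did. The interval for miR-212 ends at 1.08-fold of the control level and that for miR-132 at 1.20-fold.

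The shared seed allowed the 3p arms to be counted together, a sum chosen after the data had been seen. miRNAs with the seed AACAGUC summed to 84.0, 88.8 and 93.1 CPM in controls and to 83.6, 81.6 and 77.6 CPM after LPS. Every LPS library lay below every control library, and in 18.1% of the 259 tested seed families the groups likewise did not overlap in either direction. The log2 fold change was -0.13 (SE 0.13, 95% interval -0.42 to 0.16, edgeR adjusted p = 0.907), and 3.86% of seed families passed the test. By level this family ranked 101st of 259. All 4 arms together summed to 114.0 ± 6.54 CPM without and 102.9 ± 7.25 CPM with LPS (two-sided exact permutation p = 0.2, where 3 libraries against 3 cannot go below 0.1).

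**Figure D3:**
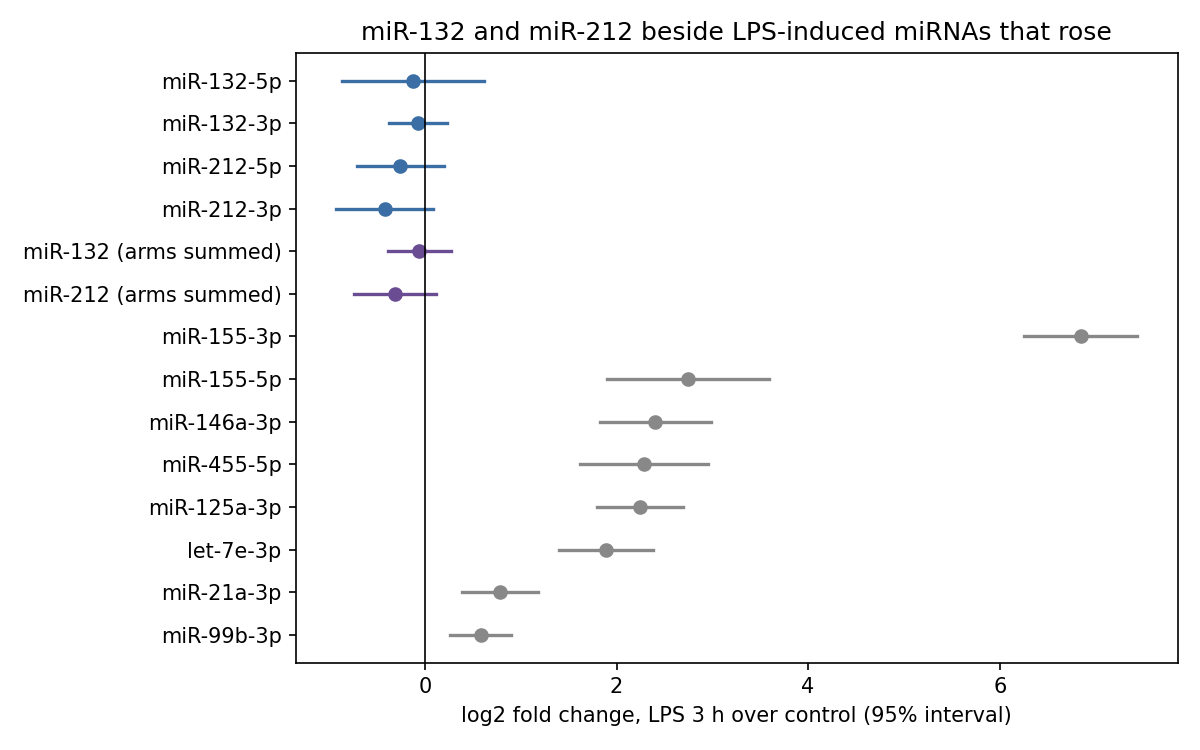
Log2 fold change of LPS over control with its 95% interval (horizontal axis) for the 4 arms (blue), the summed hairpins (purple) and the 8 miRNAs of the LPS-induced list that rose (grey). The 6 intervals of miR-132 and miR-212 include 0, and the highest bound among them is 0.62, for miR-132-5p.

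The next comparison set the hairpins against each other in level. miR-132 exceeded miR-212 in 6 of 6 libraries, by 1.81-fold, 2.32-fold and 2.53-fold in control replicates 1 to 3 and by 2.20-fold, 2.75-fold and 3.08-fold in LPS replicates 1 to 3. The mean log2 ratio of miR-132 to miR-212 was 1.27, or 2.41-fold (two-sided exact sign-flip permutation p = 0.03125, the smallest that 6 libraries can give). With any 1 library left out, the exact permutation test cannot go below p = 0.0625.

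The size and direction of this gap depended on the arm. Among 3p arms miR-132-3p exceeded miR-212-3p by 4.70-fold, with a range of 3.32-fold to 6.40-fold over the 6 libraries. Among 5p arms the order was the opposite, and miR-212-5p exceeded miR-132-5p by 2.58-fold, with a range of 1.94-fold to 4.59-fold. The miR-212 hairpin gave 13.5% to 23.2% of the 3p counts and 66.0% to 82.1% of the 5p counts of the cluster.

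In the order of levels, miR-132-3p came first and miR-212-5p next, with a gap of 4.16-fold and miR-132-3p higher in 6 of 6 libraries (exact sign-flip permutation p = 0.03125, 0.0469 after adjustment over the 3 neighbouring steps). miR-212-5p and miR-212-3p did not separate beyond their spread. Their ratio was 1.13-fold with miR-212-5p higher in 5 of 6 libraries (exact sign-flip permutation p = 0.125, adjusted 0.125). miR-132-5p came last, with miR-212-3p above it by 2.28-fold and higher in 6 of 6 libraries (exact sign-flip permutation p = 0.03125, adjusted 0.0469). These 3 tests were chosen after the data had been seen. The arms were ordered by their means in the same libraries, so the p-values are not independent support for the order.

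The hairpins differed in how their counts were divided between arms. Of the miR-132 counts, the 3p arm held 94.1%, 89.9% and 89.7% in controls and 88.7%, 92.6% and 92.6% after LPS. The exact 95% binomial intervals of single libraries spanned 83.9% to 96.5%. Of the miR-212 counts, the 3p arm held 51.3%, 44.1% and 49.6% in controls and 49.1%, 39.8% and 47.8% after LPS, with intervals from 30.7% to 59.2%. The lowest 3p share of miR-132 lay far above the highest of miR-212, and the intervals, which cover counting error only, did not meet.

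Among 100 hairpins with both arms past the filter, the less abundant arm held a median of 7.18% of the counts. miR-132 lay near that, with 8.74% for its 5p arm. miR-212 ranked 4th in evenness with 47.2% for its 3p arm, and 10 of the 100 hairpins had more than 40% in the less abundant arm. How reads that start or end away from the annotated arms were counted is not given in the sources used here.

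**Figure D4:**
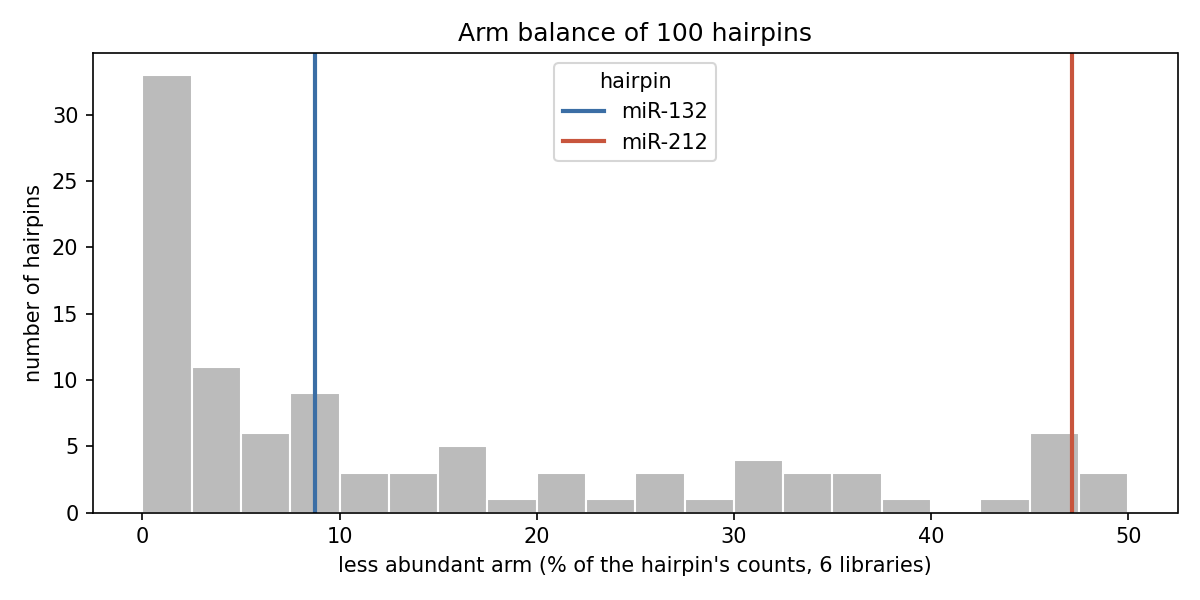
Number of hairpins (vertical axis) by the share of counts in the less abundant arm (horizontal axis, percent of the hairpin's counts over 6 libraries), for 100 hairpins. The blue line is miR-132 at 8.74% and the red line miR-212 at 47.2%.

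LPS did not move either balance past the test. The 5p arm relative to the 3p arm changed by 0.01 on the log2 scale in miR-132 (SE 0.32, 95% interval -0.67 to 0.68, limma adjusted p = 0.983). In miR-212 the value was 0.16 (SE 0.24, 95% interval -0.35 to 0.66, limma adjusted p = 0.837). Of the 100 hairpins, 12% passed this test. The 3p share of miR-212 went from 48.3% ± 3.73 to 45.6% ± 5.02 (SD, n = 3 each), a shift smaller than either SD (two-sided exact permutation p = 0.5, adjusted 0.833 over 5 shares). For miR-132 it was 91.2% ± 2.49 and 91.3% ± 2.27 (two-sided exact permutation p = 1).

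Whether LPS changed miR-212 relative to miR-132 was tested beside other hairpin neighbours. The miR-212 share of the cluster's counts was 35.6%, 30.1% and 28.4% in controls and 31.2%, 26.7% and 24.5% after LPS. LPS replicate 1 lay within the control range and LPS replicates 2 and 3 below it. The means were 31.4% ± 3.79 and 27.5% ± 3.41 (two-sided exact permutation p = 0.3, adjusted 0.75 over 5 shares). The log2 ratio of miR-212 to miR-132 changed by -0.27 (SE 0.20, 95% interval -0.70 to 0.16, limma adjusted p = 0.501).

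Among 55 pairs of tested hairpins with starts within 10000 bases of each other, limma called 0% changed in their ratio, and 7 pairs had an unadjusted p below 0.05. The starts of Mir212 and Mir132 are 294 bases apart. By absolute change of the ratio this pair ranked 16th of 55. In level, the hairpins of the pair differed by 1.26 on the log2 scale, beside a median of 2.95 over the 55 pairs, and 16 pairs differed by less. Hairpins were formed by name, so an arm whose name covers several loci was left out of the sum of each locus. miR-29b-1, for example, was counted by its 5p arm alone, and its log2 ratio with miR-29a was 10.2. The median and the ranks therefore mix whole and part hairpins, while miR-132 and miR-212 were summed over both arms.

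**Figure D5:**
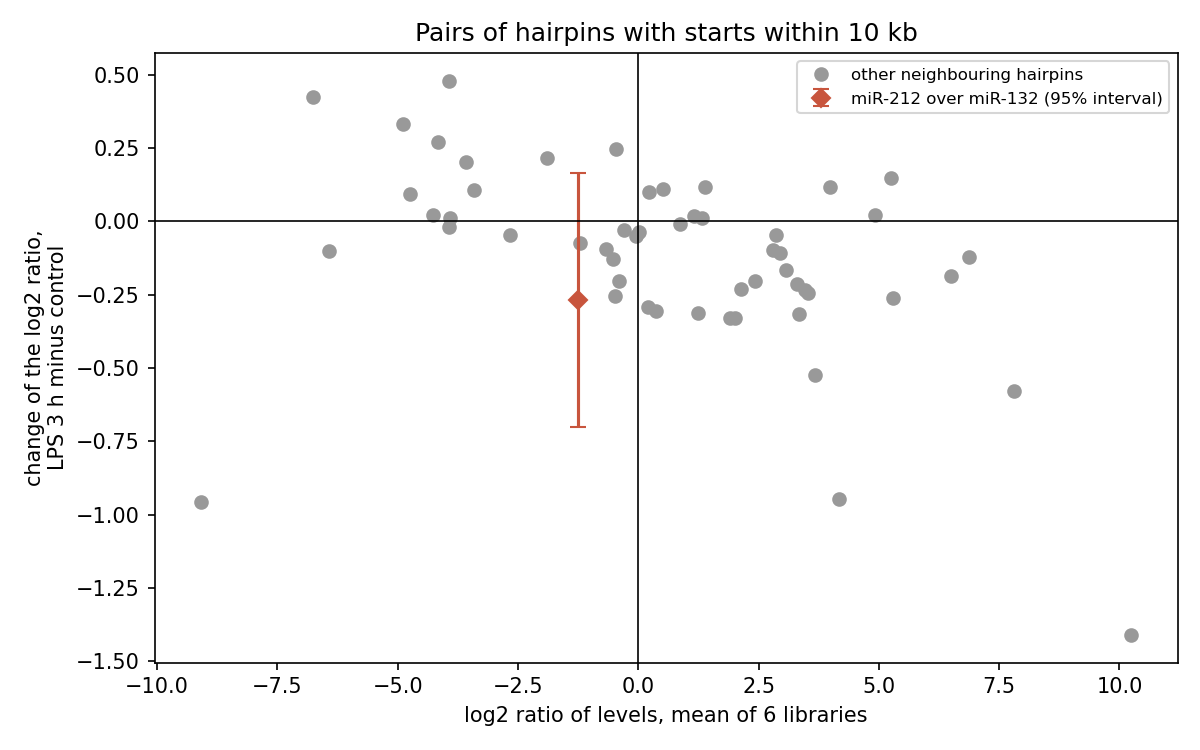
Change of the log2 ratio between neighbouring hairpins after LPS (vertical axis) against their log2 ratio of levels over 6 libraries (horizontal axis), lower coordinate over higher, for 55 pairs with starts within 10000 bases. The diamond is miR-212 over miR-132 at -0.27 with its 95% interval, which includes 0.

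The other annotated hairpins within 1 Mb were Mir6926, Mir22 and Mir3971. Mir22, whose product miR-22-3p is a dominant miRNA of these macrophages, starts 290034 bases after Mir132 on the same strand. Its level was 232959 ± 11729 CPM without and 235059 ± 20202 CPM with LPS (log2 fold change 0.01, SE 0.09), a mean level 3358-fold that of miR-132-3p. miR-22-5p was at 166.6 ± 6.47 and 179.4 ± 1.14 CPM (log2 fold change 0.11, SE 0.11). miR-6926-5p, miR-6926-3p and miR-3971 had 0 counts in all 6 libraries.

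The miRNAs whose log2 CPM followed miR-132-3p most closely over the 6 libraries, among 254 with a mean of at least 10 CPM, were miR-195a-5p (Pearson r = 0.90), miR-511-3p (0.88), miR-671-5p (0.87), miR-423-3p (0.86) and miR-200b-3p (0.85). For miR-212-3p they were miR-342-5p (0.94), let-7c-5p (0.91), miR-342-3p (0.90), let-7b-5p (0.90) and let-7f-5p (0.88). These lists did not overlap, and miR-132-3p and miR-212-3p correlated with each other at -0.04. miR-212-5p correlated with miR-212-3p at 0.68 and with miR-132-3p at 0.28. The correlations rest on 6 libraries and share each library's scaling, so they only describe these libraries.

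miRNAs described as induced by LPS in macrophages give the scale of response in the same libraries. Of 22 such arms from other hairpins, 17 were tested, 8 rose, none fell and 9 did not pass, and the median log2 fold change was 0.78. Over all 357 tested miRNAs 13 rose (3.64%) and 5 fell. The list was drawn up with results of these data known, so its rises are not independent evidence. The rises were miR-155-3p (log2 fold change 6.85), miR-155-5p (2.75), which restrains inhibitors of inflammatory signalling, miR-146a-3p (2.41), miR-455-5p (2.28), miR-125a-3p (2.24), let-7e-3p (1.89), miR-21a-3p (0.78) and miR-99b-3p (0.58). The highest edgeR adjusted p among them was 0.0415, for miR-99b-3p, whose call ended when any 1 library was left out (adjusted p up to 0.134), with upper-quartile factors (0.110), with library totals (0.069) and with a replicate block (0.0723). The call of miR-21a-3p ended when control replicate 2, control replicate 3, LPS replicate 1 or LPS replicate 3 was left out (up to 0.0863) and with upper-quartile factors (0.078). miR-147-3p and miR-455-3p had values of 1.51 (SE 0.42, edgeR adjusted p = 0.076) and 1.53 (SE 0.65, edgeR adjusted p = 0.351). Of the rises, only miR-155-5p and miR-455-5p were the more abundant arm of their hairpin. In the remaining hairpins with a risen arm other than miR-155, the more abundant arm did not pass. These were miR-125a-5p (log2 fold change 0.24), miR-146a-5p (0.21), let-7e-5p (0.17), miR-21a-5p (0.11) and miR-99b-5p (0.07). In the cluster, miR-132-3p is the more abundant arm of its hairpin and miR-132-5p the less abundant, and neither passed (-0.07 and -0.12). The arms miR-212-5p and miR-212-3p did not pass either (-0.26 and -0.42). A link between arm abundance and response was not tested.

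Of 12 other arms linked to CREB or to neuronal activity, 2 were tested and neither passed. Over all 357 tested miRNAs, 5.04% passed, so 2 arms say little. Levels of miR-34c-5p were 88.3 ± 10.1 and 82.0 ± 14.0 CPM without and with LPS (log2 fold change -0.10, SE 0.16), and those of miR-128-3p were 71.2 ± 9.47 and 61.1 ± 4.29 CPM (log2 fold change -0.22, SE 0.15). Their median log2 fold change was -0.16. miR-134-5p, miR-134-3p, miR-124-3p, miR-9-5p, miR-9-3p and miR-219a-5p had 0 counts in all 6 libraries. RefSeq holds miR-9-5p and miR-9-3p in 3 hairpins and miR-219a-5p in 2, and miR-124-3p is also made from several hairpins. With the counting of multi-mapping reads unknown, the 0 counts of these miRNAs do not show absence.

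The macrophage label was checked against markers. Macrophage and myeloid miRNAs summed to 277357 to 302029 CPM in controls and to 274475 to 322501 CPM after LPS. miR-22-3p led at 232959 ± 11729 and 235059 ± 20202 CPM. The sum is therefore mainly this single miRNA and is not by itself a check of the label. miR-142a-5p followed at 56253 ± 1694 and 57063 ± 4952 CPM, and miR-223-3p was at 2279 ± 984 and 2339 ± 331 CPM. Of 8 arms, 7 were tested, miR-223-5p fell (log2 fold change -0.86, edgeR adjusted p = 0.00623), and the median was 0.01. Over all 357 tested miRNAs, 5 fell. miR-142a-3p, a defining arm, was listed at 0 in all libraries, while miR-142a-5p of the same hairpin had 196331 to 238828 counts per library. Whether this 0 came from the cells or from the counting was not tested, so it does not show absence. miR-511-5p, hosted by the mannose receptor gene, had a value of -0.39 (SE 0.18).

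Neuronal markers, relevant because miR-132 and miR-212 are abundant in brain, were at 0 for 8 of 11 arms, among them miR-124-3p and miR-9-5p. Both are made from several hairpins, so the same limit applies to their 0 counts. Their sum of 63.1 to 79.8 CPM in controls and 57.9 to 66.5 CPM after LPS was nearly all miR-128-3p, and miR-138-5p had 1 to 8 counts per library. The lymphocyte arms miR-150-5p and miR-150-3p summed to 56.3 to 71.3 CPM in controls and 63.7 to 77.6 CPM after LPS. Erythroid arms reached at most 0.485 CPM in controls and 1.58 CPM after LPS, from miR-451a and miR-144-5p, and miR-144-3p and miR-486a-5p had no counts. Stromal arms, led by miR-143-3p and miR-214-3p, reached 2.18 and 2.21 CPM. The endothelial arm miR-126a-3p reached 0.242 CPM in controls and 0 after LPS, and miR-126a-5p had no counts. Where any of these arms is made at several loci, its low or 0 counts carry the same limit. In bulk RNA, fewer cells of a type and less of a miRNA per cell cannot be told apart.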

How the data were processed

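The members and all lists were chosen with earlier results of these data known. The authors deposited unnormalized read counts for each mature miRNA. Novoalign, SAMtools 0.1.19 and the build GRCm38.p1 (mm10) are named for them in the submitters' processing notes. Not given in the sources used here are the counter, its miRNA annotation, its use of strand and its treatment of multi-mapping reads. Each cluster arm matched a single RefSeq hairpin in the GRCm38.p6 table, the source of sequences and positions, and 1623 of 1907 names matched it.

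Counts were tested with edgeR 4.0.16 in R 4.3.3 (quasi-likelihood F test, TMM factors, filterByExpr with a minimum count of 10), with Benjamini-Hochberg adjustment over all 357 tested miRNAs, 261 hairpin names or 259 seed families, and calls at an adjusted p below 0.05. Arm balance and neighbouring hairpins were tested with limma 3.58.1 on differences of log2 CPM (prior count 2) with a variance trend. Shares and summed levels were compared between groups by two-sided exact permutation with scipy 1.17.1. Ratios of levels within libraries were tested by two-sided exact sign-flip permutation, computed with numpy 2.4.6. The fits were tested on simulated data. Intervals are at 95%. Named miRNAs were the members, the 5 most alike by correlation, hairpins within 1 Mb, and from each list those past the test, the 2 with the lowest p that did not pass and, for lists of other cell types, the 2 with the highest level. Alternatives were other scalings and filters, DESeq2 1.42.0, limma-voom, a replicate block and leaving out each library. The 2 samples of a chromosome conformation assay were not analysed here.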

Additional observations from a re-analysis of the deposited data

How the results depend on the processing

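In every alternative run, the 4 arms and both hairpins stayed short of the threshold; miR-132-5p had too few counts for the minimum count of 50. miR-212-3p kept its sign in 14 of 14 alternatives (log2 fold change -0.67 to -0.27, adjusted p 0.223 to 0.996), and so did miR-212-5p (-0.38 to -0.06), the miR-212 hairpin (-0.47 to -0.19) and its ratio to miR-132 (11 of 11, -0.40 to -0.13). Signs turned only when a library was left out: miR-132-5p (range -0.45 to 0.10, at 0.02 without control replicate 2, 0.10 without control replicate 3 and 0.05 without LPS replicate 3), miR-132-3p (-0.18 to 0.014, at 0.014 without control replicate 3), the miR-132 hairpin (-0.16 to 0.0040, at 0.0040 without control replicate 3), the arm balance of miR-132 (-0.25 to 0.14, at -0.25 without control replicate 1 and -0.20 without LPS replicate 1) and that of miR-212 (-0.0073 to 0.27, at -0.0073 without LPS replicate 2). The seed ACCGUGG of miR-132-5p gave 0.075 without control replicate 3 and 0.02 without LPS replicate 3. The count of changed miRNAs, 18, ranged from 11 (without LPS replicate 3) to 18 over single left-out libraries and reached 26 with no filter. The 7 changed hairpin names became 4 with upper-quartile factors, 4 with library totals and 1 with a minimum count of 50, and ranged from 0 (without control replicate 3, where edgeR was used) to 7 over left-out libraries. DESeq2 also gave a count of 7 hairpin names, and 21 had an unadjusted edgeR p below 0.05. The 12 changed arm balances became 7 with no variance trend, and seed families went from 10 to 17 with no filter. Changed ratios of neighbouring hairpins went from 0 to 1 with a replicate block and ranged from 0 to 1 over left-out libraries (1 without LPS replicate 2). The log2 ratio of miR-132 to miR-212 in level ranged from 1.20 to 1.35 over left-out libraries, where the exact sign-flip permutation test of 5 libraries cannot go below p = 0.0625. It was 2.23 for 3p arms only. Same-numbered libraries correlated in their deviations at 0.02, 0.14 and -0.04, and differently numbered ones at -0.15 to 0.14. These values gave no sign of pairing by number, but with 3 libraries per group they cannot exclude it. With the replicate block 17 miRNAs and 8 hairpin names were called, none of them an arm or hairpin of the cluster. The summed level differed by -11.2 CPM (exact sign-flip permutation p = 0.5, a test that with 3 pairs cannot reach 0.05). Depth limits the 5p arm of miR-132 most, at 17 to 36 counts per library.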

Other observations

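Control replicate 1 differed from the other control libraries in the make-up of the cluster, a contrast picked after the values were seen and not tested. It held 17 counts of miR-132-5p, against 34 and 36 in control replicates 2 and 3. The miR-212 hairpin gave 35.6% of the cluster's counts there (exact 95% binomial interval 31.2% to 40.3%), against 30.1% (26.1% to 34.5%) and 28.4% (24.4% to 32.6%). Of the 5p counts, miR-212-5p gave 82.1% there (72.9% to 89.2%), against 70.4% (61.2% to 78.6%) and 66.0% (56.2% to 75.0%). For both shares the interval of control replicate 1 overlaps those of the other controls. Without that library the log2 ratio of miR-132 to miR-212 in level was 1.35 in place of 1.27.

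Another hairpin linked to CREB, miR-34b, had 3.13 ± 0.97 CPM without and 6.09 ± 2.27 CPM with LPS as the sum of its arms (SD, n = 3 each), and the groups overlapped. Its log2 fold change of 0.99 (SE 0.36, edgeR adjusted p = 0.375) did not pass. Its single arms were too scarce to test. miR-34b-5p had 3 to 20 counts per library, with 1.68 ± 0.83 CPM without and 3.62 ± 1.55 CPM with LPS. miR-34b-3p had 4 to 15 counts, at 1.45 ± 0.50 and 2.47 ± 1.10 CPM. miR-147-5p, the other arm of an LPS-induced hairpin, went from 0.241 ± 0.243 to 4.10 ± 1.90 CPM with 0 to 22 counts per library and was not tested. These miRNAs were chosen after their values were seen.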
